A study of Mus musculus with 12 samples.

Results

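Retinoic acid, made from vitamin A, acts through nuclear receptors that bind DNA as pairs of a retinoic acid receptor (RAR) and a retinoid X receptor (RXR). The genes described here are 10 of the 55335 features of the count tables, chosen by symbol. They comprise the receptors Rara, Rarb, Rarg, Rxra, Rxrb and Rxrg, the enzymes Aldh1a1 and Aldh1a3, which make retinoic acid from retinaldehyde, the enzyme Cyp26b1, which breaks it down, and Crabp1, which binds it in the cytoplasm. Rarb and Rxrg are known for their role in striatal projection neurons, and the meninges are known as a source of retinoic acid for the developing cortex.

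Single nuclei of newborn mouse forebrain (postnatal day 1, P1) had been sequenced for RNA, 1 animal per library. There were 8 wild-type (WT) libraries, of which 5 were male and 3 female, and 4 libraries heterozygous (Het) for the frameshift allele MYT1L S710fsX, of which 3 were male and 1 female. MYT1L is a transcription factor of neurons. The animals came from 4 litters, and the labels do not say which animals shared one. The labels give the tissue as forebrain, while the study's text also names the prefrontal cortex, so its extent is uncertain.

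Of 126684 barcodes, none of them shared between libraries, 96310 nuclei were kept, 56334 of them WT and 39976 Het. A library held between 10094228 and 25282218 unique molecular identifiers (UMIs, tags that mark single RNA molecules) in kept nuclei, with medians of 1726 to 2123 per nucleus. Nuclei were placed in a class where they held UMIs of enough distinct markers of that class and met no other gate, and no member was a marker. This placed 36.8% of kept nuclei, so a class is a range of marker content rather than a complete cell type. The striatal-like class held 4273 nuclei with at least 3 striatal markers, at least 1 inhibitory marker and no general excitatory marker, 1944 of them at the minimum of 3. It was split by the excess of D1 or D2 markers into 2727 D1-like and 1065 D2-like nuclei, D1 and D2 being the dopamine receptors that separate the main kinds of striatal output neuron. A striatal-like nucleus also held a median of 2 of the deep-layer markers, a list that includes Bcl11b, a gene that striatal neurons use as well. The meningeal fibroblast-like class held 2763 nuclei, 230 of them at its minimum of 4 markers, with a median of 7 fibroblast markers and 0 inhibitory or excitatory neuron markers. Levels are given as counts per 1000000 UMIs of a class in a library (CPM), with the SD over libraries.

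The WT male 4 library stood apart. It held 17 striatal-like nuclei, 0.330% of its kept nuclei, against 2.90% to 5.52% in the other WT libraries. The striatal-like share and several Rarb values are also given without it, while other striatal-like and D1-like levels include it. Striatal-like nuclei made up 3.53% ± 1.55 of WT nuclei (SD, n = 8). In Het male 1, 2 and 3 and Het female 1 they made up 4.09%, 7.66%, 3.83% and 6.11%. The Het mean was higher by 1.89 percentage points, and 4 of 4 Het libraries exceeded the WT mean, but the difference did not pass the test (exact permutation test, two-sided p = 0.0848, adjusted over both classes p = 0.170). It was 1.43 points without WT male 4 (exact permutation p = 0.127), 1.14 without Het male 2 (p = 0.255) and 2.42 without Het male 3 (p = 0.0485, unadjusted). Fibroblast-like nuclei made up 2.89% ± 1.24 of WT (SD, n = 8) and 2.98% ± 0.843 of Het nuclei (SD, n = 4; exact permutation p = 0.840).

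Rarb (ENSMUSG00000017491.9) lies on chromosome 14 from 16430839 to 16819156 on the minus strand (GRCm38), where it overlaps 9483 bases of Top2b and Gm48162 on the other strand. Retinoic acid response elements are direct repeats of a hexamer, and the promoter of Rarb is the textbook example. Among the 300-base promoter windows of RefSeq (GRCm38.p6, 250 bases before to 50 after a start) 9 of the 10 members had 17 windows. Both strands were searched for direct repeats of the hexamer AGGTCA, its variant AGTTCA, the hexamer GGGTCA or its variant GGTTCA, with 5, 2 or 1 bases between the hexamers, and each spacing was counted separately, so that 1 window could count under several. A repeat with 5 bases between was found in 32 of 32851 windows (0.0974%), one of them a Rarb window, at chr14:16575513-16575529. The search was checked beforehand on this same repeat, whose hexamers were among those allowed. The Rarb match was therefore fixed in advance. The RefSeq start of this Rarb window lies inside the gene span given above, and the stretch overlaps 2 annotated exons and 2 untranslated regions of Rarb transcripts. The stretch around it is shown because it is the one member promoter with such letters, and the capitals mark the hexamers:
Rarb internal promoter window, chr14:16575506-16575535, minus strand: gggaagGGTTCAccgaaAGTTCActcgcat
Repeats with spacers of 2 and 1 bases occurred in 0.268% and 0.222% of all windows and in none of the member windows. A match describes letters only, and its use in these nuclei was not measured.

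Rarb was highest in D1-like nuclei, at 2184 ± 310 CPM (SD, n = 12), followed by D2-like nuclei at 1860.5 ± 266 (SD, n = 11). Meningeal fibroblast-like nuclei came next at 449 ± 71.0 CPM (SD, n = 12), ahead of olfactory-type inhibitory neurons at 233 ± 153 and mural-like nuclei at 181 ± 141 (SD, n = 8). The olfactory-type markers include Meis2, which had 2860 CPM in striatal-like nuclei, and the gate did not exclude every nucleus with a striatal marker. Of its 2183 nuclei, 1436 were at the minimum of markers, and whether striatal nuclei were among them was not tested. Of neighbours in the order, D2-like and fibroblast-like nuclei differed beyond their SDs, while D1-like and D2-like nuclei, and those below the fibroblast-like class, did not. Within a library, D1-like nuclei were above D2-like nuclei in 11 of 11 libraries, by a factor of 1.01 to 1.403 (median 1.23).

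Upper-layer excitatory neurons had the lowest Rarb level of the classes ranked, 22.7 ± 9.10 CPM. The D1-like mean was 96.2 times and the fibroblast-like mean 19.8 times that of upper-layer neurons, in 12 of 12 libraries each. Fibroblast-like nuclei exceeded endothelial-like nuclei, another class of the vessels and coverings of the brain, 13.2-fold in 12 of 12 libraries. Over MGE-type interneurons (MGE, medial ganglionic eminence) the excess was 2.95-fold, also in 12 of 12 libraries. Striatal-like nuclei held 39.1% of all Rarb UMIs with 4.44% of the nuclei, fibroblast-like nuclei held 3.44% with 2.87%, and 50.7% lay in nuclei of no class.

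A Rarb UMI was found in 93.7% of D1-like nuclei (95% exact binomial interval 92.7 to 94.5) and in 47.2% of fibroblast-like nuclei (45.3 to 49.0), against 4.70% of upper-layer and 3.28% of endothelial-like nuclei. Median depths were 2814, 1522, 2613 and 1408 UMIs. Thinned to 800 UMIs per nucleus, the shares were 78.6%, 29.0%, 1.70% and 1.76%. The order of the first 2 classes over the last 2 was therefore the same at equal depth, and the intervals cover counting error only.

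**Figure D1:**
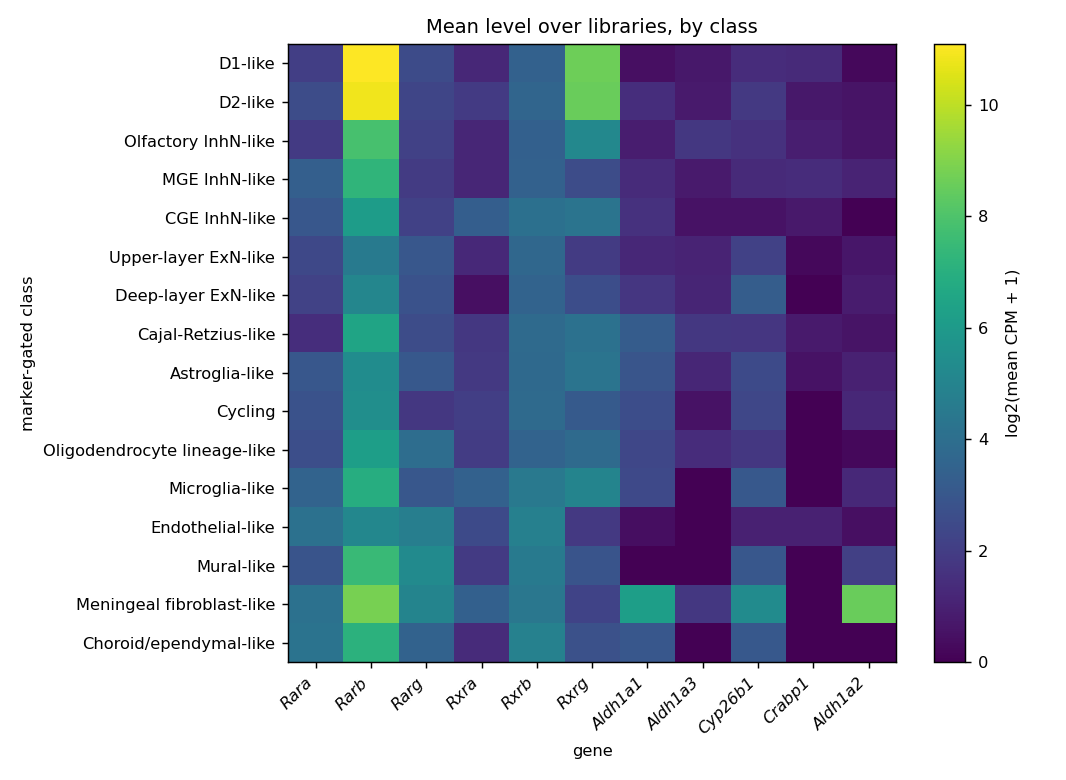
Mean level of each member and of Aldh1a2 over libraries (color, log2 of mean CPM + 1) in 16 marker-gated classes (rows) for each gene (columns). Rarb and Rxrg are brightest in D1-like and D2-like nuclei. Rarb, Aldh1a1, Aldh1a2, Cyp26b1 and Rarg are bright in meningeal fibroblast-like nuclei, and Rarg also in mural-like nuclei.

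Rxrg (ENSMUSG00000015843.10, chromosome 1, 167598384 to 167639623, plus strand), an RXR of restricted expression, was also highest in striatal neurons but was near the bottom of its range in fibroblasts. It reached 399 ± 74.9 CPM in D1-like (SD, n = 12) and 370 ± 140 CPM in D2-like nuclei (SD, n = 11), and the 2 means did not differ beyond their spread. D1-like nuclei were the higher in 7 of 11 libraries. The next class, olfactory-type inhibitory neurons, had 35.3 ± 27.8 CPM, and fibroblast-like nuclei had 3.73 ± 3.03. The D1-like mean was 141.8 times that of upper-layer neurons (12 of 12 libraries). Striatal-like nuclei held 46.0% of all Rxrg UMIs, and 47.4% lay in nuclei of no class. Of D1-like nuclei 54.3% held an Rxrg UMI, against 0.821% of endothelial-like nuclei, or 24.7% and 0.362% after thinning.

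Rarg, an RAR of skin and skeletal tissue, had 31.2 ± 11.7 CPM in fibroblast-like nuclei and 38.4 ± 24.2 in mural-like nuclei (SD, n = 8), the latter from 10 UMIs. Its fibroblast-like mean was 4.38 times that of upper-layer neurons (12 of 12 libraries). Rara, a broadly expressed RAR, had 16.4 ± 10.1 CPM in fibroblast-like and 3.42 ± 2.30 in striatal-like nuclei. Rxra had 9.45 ± 5.11 and 1.65 ± 1.80 CPM in these classes, and Rxrb 20.2 ± 7.0 and 10.04 ± 4.91. Rara, Rxra and Rxrb each had a higher mean in another class, with overlapping ranges. Rara was highest in choroid/ependymal-like nuclei, at 17.7 ± 16.1 CPM (SD, n = 6, from 8 UMIs). The highest Rxra mean was 9.81 CPM, in microglia-like nuclei (n = 10, from 4 UMIs). For Rxrb it was 34.7 ± 24.8 CPM, in intermediate progenitor-like nuclei (SD, n = 4, from 5 UMIs). Endothelial-like nuclei had 16.4 ± 10.7 CPM of Rara and 27.1 ± 30.2 of Rxrb. Since nuclei were sequenced with reads assigned to whole genes, levels of different genes are not compared here.

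Among the enzymes, Aldh1a1 (ENSMUSG00000053279.8) was highest in fibroblast-like nuclei at 73.2 ± 31.2 CPM (SD, n = 12). Cajal-Retzius-like nuclei came next at 8.28 ± 7.49 CPM, then choroid/ependymal-like nuclei at 7.05 ± 10.03 (SD, n = 6, from 1.83 UMIs) and astroglia-like nuclei at 6.63 ± 3.72. The fibroblast-like level was above the astroglia-like in 12 of 12 libraries. The fibroblast-like class held 42.1% of Aldh1a1 UMIs, and 37.7% lay in nuclei of no class. An Aldh1a1 UMI was found in 9.95% of fibroblast-like nuclei, against 0.164% of endothelial-like nuclei (5.73% and 0.0261% after thinning). Aldh1a2, the related enzyme known from the meninges and not among the members, was measured from the list of pathway genes at 378 ± 59.4 CPM in the same class, which held 79.4% of its UMIs. Aldh1a3 had 440 UMIs over all kept nuclei and reached 2.53 CPM at most, in olfactory-type inhibitory neurons.

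Cyp26b1 was also highest in fibroblast-like nuclei, at 40.4 ± 24.6 CPM, 4.66 times the deep-layer mean of 8.66 ± 2.72 (12 of 12 libraries). Deep-layer excitatory neurons were in turn 2.53 times above upper-layer neurons, in 11 of 12 libraries. Aldh1a1 and Cyp26b1, of synthesis and of breakdown, were thus both measured highest in the same class. Fibroblast-like nuclei held 14.5% of Cyp26b1 UMIs, however, while 63.4% lay in nuclei of no class. Crabp1 had 107 UMIs in all. It was found in 0 of 2763 fibroblast-like nuclei, which allows a share of nuclei with a UMI of up to 0.109% at a median of 1522 UMIs and sets no limit on nuclei that express it. Its highest class mean was 1.67 CPM, in MGE-type interneurons.

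Genes whose pattern over 18 class means was most like a member's were taken outside the marker lists, by the Pearson correlation of log2(CPM + 1), as a description across classes that share libraries. For Rarb these were Col25a1 (r = 0.848), Nexn (0.848) and BC051408 (0.808), and for Rxrg they were BC051408 (0.923), Myo3b (0.921) and Nexn (0.853). Nexn and BC051408 stood on both lists. For Aldh1a1 they were Pamr1 (0.921), Fat2 (0.860) and Dnajc5b (0.859), for Cyp26b1 Ptgds (0.843), Rnf181 (0.829) and Flnc (0.815). For Rarg they were Sgf29 (0.902), Mxd4 (0.902) and Airn (0.899), and for Rxrb Setd1a (0.926), Lars2 (0.890) and 4930581F22Rik (0.885). The classes highest for Rarg and Rxrb rest on few UMIs, 10 in mural-like nuclei for Rarg and 5 in intermediate progenitor-like nuclei for Rxrb. Rara, Rxra, Aldh1a3 and Crabp1 did not reach 20 CPM in any class.

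To ask whether loss of 1 functional Myt1l allele was accompanied by a change in these genes, counts were summed per library and class and WT was compared with Het. A gene was called at an adjusted p under 0.05 with a log2 difference of at least 0.2. Over 17 classes 6 members entered the test, in 24 pairs of member and class, and edgeR's quasi-likelihood test called 0 of 24 (4 at an unadjusted p under 0.05, 15 higher in Het). DESeq2 also called 0, with 3 at an unadjusted p under 0.05. By edgeR the 4 were Rarb in deep-layer, astroglia-like and MGE-type nuclei and Rxrg in D2-like nuclei. The pairs are not separate results, since many of them are Rarb in the same libraries. D1-like and D2-like nuclei also lie within the striatal-like class. The share of all genes at an unadjusted p under 0.05 is not given, so no excess is read from these counts. In the striatal-like, D1-like and fibroblast-like classes percent called over all genes was 0%, in D2-like nuclei 0.0259%, in astroglia-like nuclei 0.0114% and in MGE-type interneurons 0.291%. A p that misses the threshold does not show that the levels were alike.

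In D1-like nuclei the 8 WT libraries had Rarb levels from 1308 to 2452 CPM with a median of 2160.5. The 4 Het libraries had 2468, 2236, 2121 and 2212 CPM. The Het values lay in or just above the WT range, and the log2 fold change of Het against WT was 0.042 (SE 0.121, edgeR adjusted p = 1.00). The lowest WT value, 1308 CPM, was that of WT male 4, and leaving it out gave a log2 fold change of -0.023. Over the whole striatal-like class the Het mean exceeded the WT mean by 143 CPM (exact permutation p = 0.549), and by 24.6 CPM without WT male 4 (exact permutation p = 0.824). With a gate asking for 1 more marker the difference turned to -76.0 CPM, and the log2 fold change to -0.062 in striatal-like and -0.093 in D1-like nuclei. Among D2-like nuclei, WT libraries had 1513 to 2245 CPM (median 1989, n = 7) and Het libraries 2033, 1847, 1576 and 1706 CPM, with a log2 fold change of -0.10 (SE 0.130, edgeR adjusted p = 0.974; -0.16 without Het male 1 and -0.046 without Het male 3). With the replicate block, on 8 libraries, the sign turned, to 0.056. Het values thus lay within the WT range.

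In fibroblast-like nuclei WT libraries had Rarb levels from 314 to 543 CPM with a median of 429. Het libraries had 457, 536, 427 and 541 CPM. All Het values lay within the WT range, with a log2 fold change of 0.19 (SE 0.135, edgeR adjusted p = 0.960; exact permutation p = 0.182).

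For Rxrg in D1-like nuclei, WT libraries had 258 to 522 CPM (median 409) and Het libraries 407, 360, 318 and 420 CPM, within the WT range, with a log2 fold change of -0.11 (SE 0.132, edgeR adjusted p = 0.983; -0.19 without WT female 3 and -0.052 without WT male 5). In D2-like nuclei the WT range was 278 to 645 CPM with a median of 375 (n = 7). The Het libraries had 333, 287, 217 and 290 CPM, all below the WT mean and 3 of them within the WT range. Their log2 fold change of -0.55 (SE 0.212, edgeR unadjusted p = 0.0168) did not pass adjustment (adjusted p = 0.914; exact permutation p = 0.0606). The smallest p that 7 against 4 libraries allow is 0.00606.

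**Figure D2:**
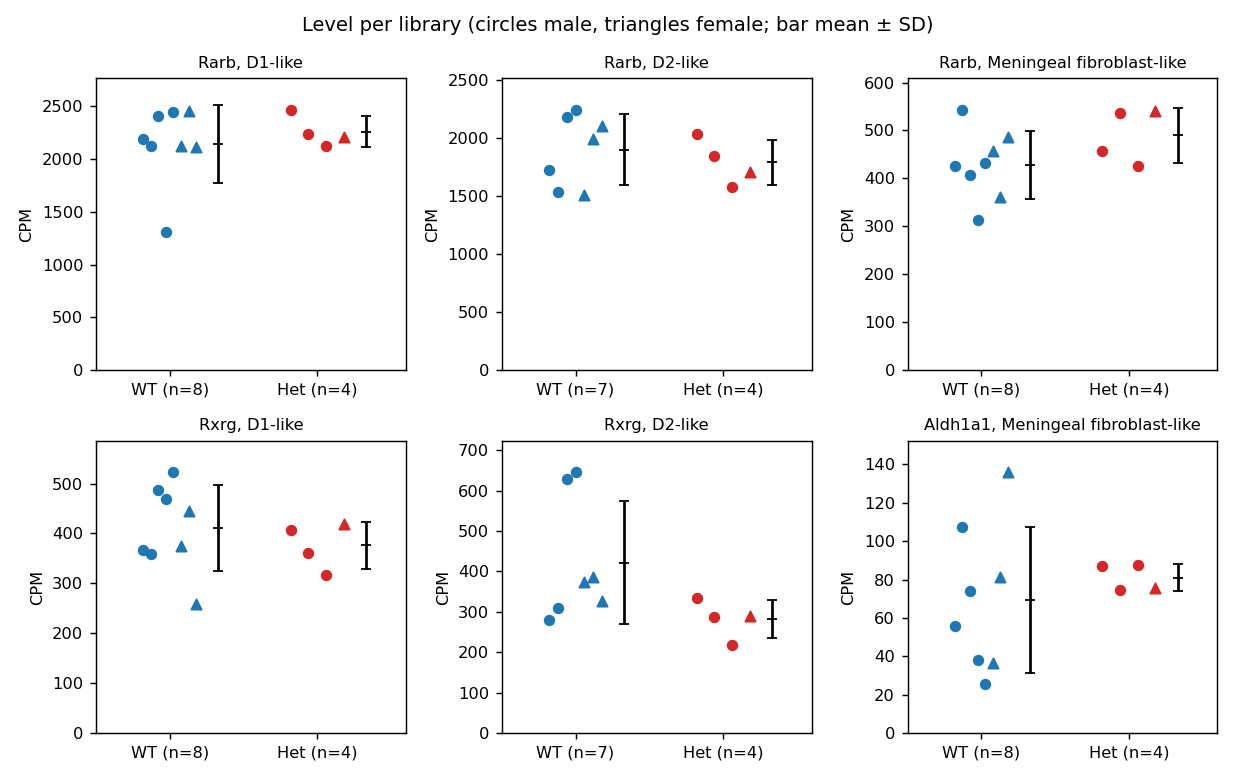
Level per library (y axis, CPM from 0) of Rarb and Rxrg in D1-like and D2-like nuclei and of Rarb and Aldh1a1 in meningeal fibroblast-like nuclei, WT in blue and Het in red, with circles for males and triangles for females. Bars give the mean ± SD, and the Het values fall among the WT values in most panels, with Rxrg in D2-like nuclei the lowest against WT.

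Aldh1a1 in fibroblast-like nuclei ranged from 25.7 to 136 CPM in WT libraries (median 64.8). Het libraries had 87.0, 74.4, 87.3 and 75.4 CPM, inside the WT range (log2 fold change 0.17, SE 0.282, edgeR adjusted p = 0.993). That fold change was 0.057 without WT male 5 and 0.32 without WT male 2. Cyp26b1 ranged from 10.997 to 93.6 CPM in WT (median 37.8) against 33.5, 53.6, 26.9 and 33.2 CPM in Het (log2 fold change -0.10, SE 0.423, edgeR adjusted p = 1.00). Rarg ranged from 17.8 to 44.7 CPM in WT (median 35.7) against 40.8, 23.8, 40.3 and 6.65 CPM in Het, where Het female 1 lay below every WT library (log2 fold change -0.21, SE 0.322, edgeR adjusted p = 0.993). These 3 genes rested on 381, 172 and 160 UMIs in the class, and the source of their wide errors was not tested.

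**Figure D3:**
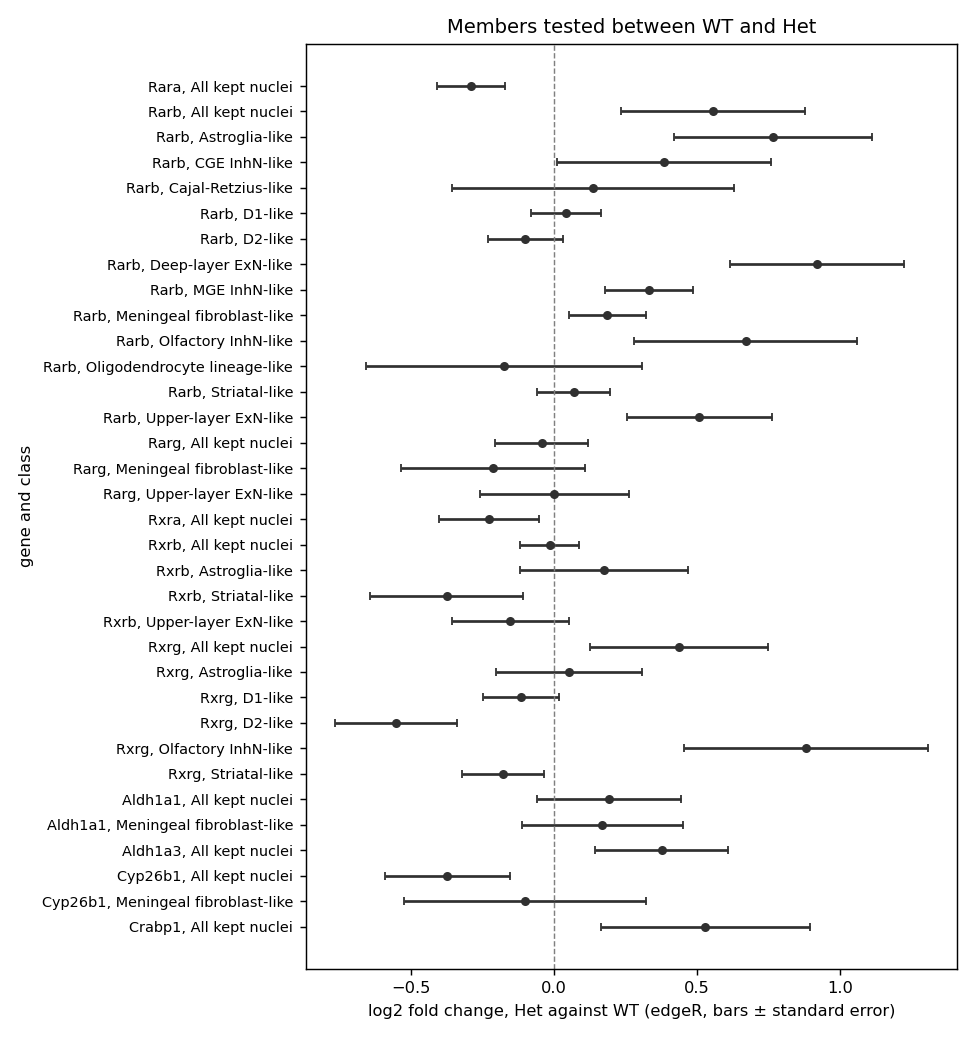
Log2 fold change of Het against WT (x axis, bars ± standard error from edgeR) for each tested pair of member and class, including all kept nuclei (rows). The Rarb estimates in striatal classes lie near 0, and those in deep-layer and astroglia-like nuclei, 0.92 and 0.77, lie farthest to the right among the Rarb rows.

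Rarb was also tested in 8 classes outside the striatal and fibroblast ones. Beside these values, the striatal-like share was 3.53% in WT and 5.42% in Het libraries, and its part in them was not tested. In deep-layer neurons WT libraries had 12.6 to 36.6 CPM and Het libraries 20.3, 99.9, 59.4 and 25.6 CPM, where Het male 2 and 3 lay above every WT library (log2 fold change 0.92, SE 0.305, edgeR unadjusted p = 0.00636, adjusted p = 0.464). Het male 1 and Het female 1 lay within the WT range. The Het mean was 51.3 ± 36.7 CPM (SD, n = 4) against 24.7 ± 8.09 in WT (SD, n = 8; exact permutation p = 0.117). With no filter on low counts this pair and the astroglia-like pair were called (adjusted p = 0.00207 and 0.0103), beside 0.253% and 0.272% of all genes in these classes under that setting. Deep-layer nuclei made up 4.35% of WT and 2.45% of Het nuclei (exact permutation p = 0.0485, unadjusted), and the part of this in the level was not tested. In astroglia-like nuclei the log2 fold change was 0.77 (SE 0.346, edgeR adjusted p = 0.861), in MGE-type interneurons 0.33 (SE 0.155, adjusted p = 0.561) and in upper-layer neurons it was 0.51 (SE 0.253, adjusted p = 0.584). The MGE estimate was 0.14 without Het male 2 and 0.50 without Het male 1.

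Over all kept nuclei, percent called was 0% of 20196 genes, and edgeR and DESeq2 each called 0 of 10 members, with 1 member at an unadjusted p under 0.05 in each and 5 higher in Het. Over all nuclei, fewer cells of a type and less RNA per cell cannot be told apart. Rarb ranged from 44.8 CPM in WT male 4 to 312 CPM in WT libraries (median 259), and Het libraries had 278, 477, 287 and 392 CPM. The Het mean was higher by 119.8 CPM, and 4 of 4 Het libraries exceeded the WT mean (exact permutation p = 0.0444, adjusted over 34 pairs p = 0.498; edgeR log2 fold change 0.56, SE 0.323, adjusted p = 0.567). Without WT male 4 the difference was 92.1 CPM (exact permutation p = 0.0667). Rara, at 4.44 to 6.70 CPM in WT and 4.94, 4.05, 5.09 and 4.69 CPM in Het, had a log2 fold change of -0.29 (SE 0.120, edgeR unadjusted p = 0.0289, adjusted p = 0.428).

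The level of Rarb over all nuclei moved with the share of striatal-like nuclei in a library. Over the 12 libraries Pearson's r was 0.985 and Spearman's rho 0.958. Striatal-like nuclei enter both measures and hold 39.1% of the Rarb UMIs, so this is a description with no test. Without WT male 4 and Het male 2, the 2 libraries farthest from the median share, r was 0.948. Among WT libraries alone it was 0.976, and 0.951 without WT male 4. In upper-layer neurons, which are outside that share, r was 0.833 (permutation p = 0.00092 with 100000 resamples) and rho 0.664 (permutation p = 0.0224), and r fell to 0.676 without those 2 libraries. Free RNA in the nuclei was not measured here, and its part in the upper-layer values was not tested.

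**Figure D4:**
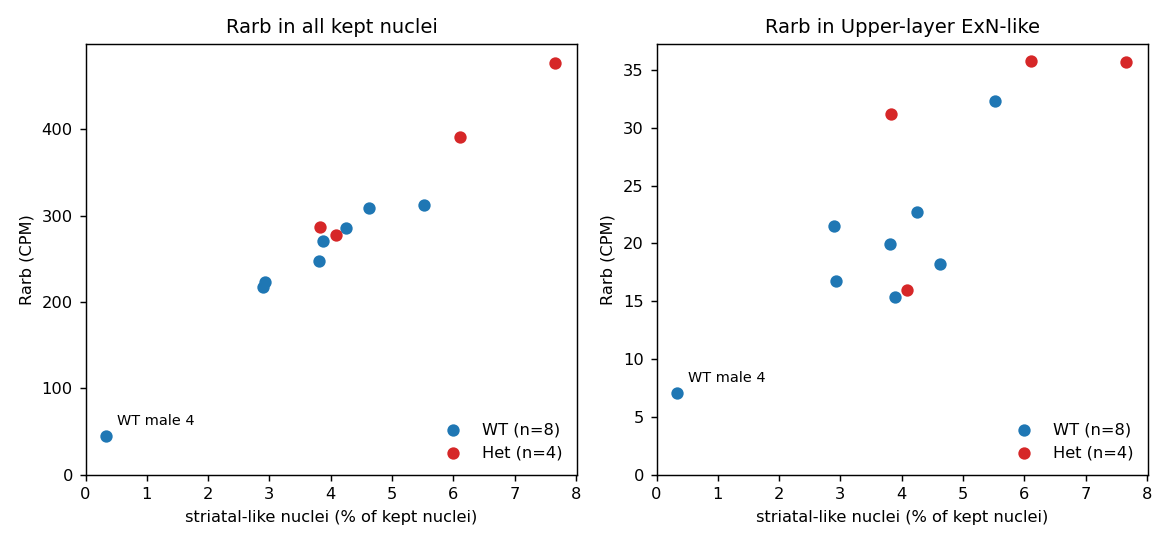
Rarb level (y axis, CPM) against striatal-like nuclei in percent of kept nuclei (x axis) for 8 WT (blue) and 4 Het libraries (red), over all kept nuclei (left) and in upper-layer excitatory neurons (right). Points rise from WT male 4 at 0.330% and 44.8 CPM to Het male 2 at 7.66% and 477 CPM on the left, and scatter more on the right.

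Pairs of member and class too low for edgeR were compared by the exact test alone, 169 pairs with at least 1 UMI including those above, a wider family that was set after the values had been seen. In it 8 pairs had a p under 0.05 and none passed adjustment (smallest adjusted p = 0.341). A threshold of 0.05 over 169 pairs can give a count of about this size by chance, so no excess is read from it. Rara in upper-layer neurons had 3.66 to 6.28 CPM in WT and 3.32, 1.97, 3.62 and 1.56 CPM in Het libraries, and Rarg in deep-layer neurons had 4.29 to 12.1 CPM in WT and 2.14, 3.75, 4.05 and 4.23 CPM in Het libraries. In both the groups did not overlap, and the exact permutation p of 0.00404 is the smallest that 8 against 4 libraries allow. Few UMIs lay behind these values, 2 to 12.5 per library for Rara and 1 to 10 for Rarg. In both the highest Het and the lowest WT value differed by less than 1 UMI is worth, 3.62 and 3.66 CPM for Rara and 4.23 and 4.29 CPM for Rarg. Every Het library was below every WT library for 0.0998% of all genes with a UMI in upper-layer neurons and for 0.129% in deep-layer neurons. A gene without a UMI in some WT library could not count toward these shares. Among genes detected in every WT library the shares would be higher, and they were not computed. Rxrb in fibroblast-like nuclei had 16.4 to 33.3 CPM in WT and 18.9, 8.93, 8.40 and 17.7 CPM in Het libraries, with overlap (exact permutation p = 0.0121, adjusted p = 0.512). These 3 pairs were chosen after their values were seen, and all 3 were lower in Het. Also lower were Rxrb in CGE-type interneurons (20.9 CPM in WT, 6.60 in Het, exact permutation p = 0.0121), Rarg in astroglia-like nuclei (p = 0.0162) and Rxrb in MGE-type interneurons (p = 0.0323). Higher in Het were Rxrg in MGE-type interneurons (3.70 CPM in WT, 7.64 in Het, exact permutation p = 0.0323) and Rarb over all kept nuclei, given above. CGE stands for caudal ganglionic eminence.

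Other genes of the pathway were read from fixed lists. Some of their genes were also gate markers, so their levels are not independent of how nuclei were placed. These include Drd2 for D2-like nuclei, Meis2 and Tshz1 for olfactory-type neurons, Ttr for choroid/ependymal-like nuclei and Nr4a2 for subplate neurons. Of the 20 retinoid enzymes outside the members, 3 were tested in fibroblast-like and 6 in striatal-like nuclei and 0 were called in either (0 at an unadjusted p under 0.05 by edgeR in both). Their median log2 fold changes were -0.071 and -0.096, against -0.0062 and -0.00075 over all genes tested. Dhrs3, which reduces retinaldehyde, had 56.4 ± 11.8 CPM in fibroblast-like nuclei (log2 fold change 0.34, SE 0.186, edgeR adjusted p = 0.947). Rdh10, which makes it from retinol, had 47.7 ± 9.32 CPM there and 41.9 ± 11.1 CPM in striatal-like nuclei. Dgat1, which can esterify retinol, had 27.8 ± 5.36 CPM in striatal-like nuclei, and Dhrs3 22.5 ± 25.0.

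Of 8 carriers in the files 2 were tested in each of these classes and 0 called, with 0 at an unadjusted p under 0.05. Stra6, a retinol transporter, had 49.1 ± 16.8 CPM in fibroblast-like nuclei, against 6.86 ± 3.02 CPM in striatal-like nuclei. Crabp2, a retinoic acid binding protein, had 10.1 ± 5.97 CPM in the former, and Fabp5, a fatty acid binding protein, 13.4 ± 4.60 CPM in the latter. All 15 coregulators were tested in both classes and 0 called, with 1 in each at an unadjusted p under 0.05. Ncoa1, a coactivator, had 1016 ± 133 CPM in striatal-like and 449 ± 46.8 CPM in fibroblast-like nuclei. Ncor1, a corepressor, had 325 ± 16.8 and 645 ± 34.3 CPM in these classes. Tbl1x, a subunit of the corepressor complex, had 332 ± 40.4 CPM in striatal-like nuclei, and Crebbp, an acetyltransferase, 489.7 ± 27.3 CPM in fibroblast-like nuclei. Of 21 genes known to respond to retinoic acid, 11 were tested in fibroblast-like and 8 in striatal-like nuclei and 0 called (3 and 1 at an unadjusted p under 0.05). These counts are given without the share of all genes at that threshold, so no excess is read from them. Meis2, a homeodomain factor, had 2860.3 ± 287 CPM in striatal-like and 201 ± 111 CPM in fibroblast-like nuclei, and its relative Meis1 136 ± 36.9 CPM in striatal-like nuclei. Zbtb16, a zinc finger repressor, ranged from 34.1 to 930.4 CPM over the fibroblast-like libraries. Nav2, at 189 ± 48.3 CPM in fibroblast-like and 418 ± 149.8 CPM in striatal-like nuclei, was among the 3 at an unadjusted p under 0.05 in fibroblast-like nuclei (log2 fold change 0.38, SE 0.175, edgeR adjusted p = 0.947), against -0.24 over all kept nuclei (SE 0.0664, edgeR adjusted p = 0.337). The median log2 fold changes in fibroblast-like and striatal-like nuclei were -0.11 and -0.012 for the coregulators and 0.10 and 0.032 for the responsive genes.

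Of 378 pairs of a pathway gene and a class tested, 1 was called, Thrb, the thyroid hormone receptor beta, a partner of RXR, in MGE-type interneurons. In that class 0.291% of all genes tested were called, the highest share of any class. WT libraries had 416 to 721 CPM (median 548) and Het libraries 438, 361, 294 and 396 CPM, so that 3 of 4 Het libraries lay below every WT library. Thrb was lower in Het by 0.59 on the log2 scale (log2 fold change -0.59, SE 0.124, edgeR adjusted p = 0.0381; DESeq2 adjusted p = 0.0138). The class itself made up 4.79% ± 0.589 of WT (SD, n = 8) and 3.61% ± 0.312 of Het nuclei (SD, n = 4; exact permutation p = 0.0121, unadjusted), and the part of this in the level was not tested. The direction held with each library left out, from -0.68 to -0.50, but the call was kept in 7 of 12 such fits. It was lost without Het male 2 (adjusted p = 0.187), Het male 3 (0.258), WT female 2 (0.0528), WT female 3 (0.0532) or WT male 3 (0.0683), all by edgeR. It was also lost with the replicate block (edgeR on 8 libraries, log2 fold change -0.39, adjusted p = 0.136), the stricter gate (-0.46, 0.105), all barcodes (-0.58, 0.136) and males alone (-0.61, 0.0774). Of the 12 RXR partners 3 were tested in striatal-like and 4 in fibroblast-like nuclei and 0 called. Thrb in striatal-like nuclei, at 510 ± 166 CPM, had a log2 fold change of -0.42 (SE 0.187, edgeR unadjusted p = 0.0354, adjusted p = 0.890).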

How the data were processed

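The authors aligned reads and assigned UMIs to genes with the ScaleRna workflow on mm10 and deposited expected counts, with UMIs of ambiguous assignment split among genes (6.58% to 6.88% of entries per library). The study's filters were applied, namely 800 to 6000 UMIs and 300 to 3000 genes, no more than 1% mitochondrial UMIs, and log(genes)/log(UMIs) of 0.9 or more, which left 100035 barcodes. Barcodes with the 5% highest doublet scores per library, 6333 in all, were marked, and 3725 that had passed were removed. Free RNA was not subtracted. Counts were summed per library and class, rounded, since whole counts had been assumed, and tested with edgeR 4.0.16 (R 4.3.3, TMM, filterByExpr, genotype only, Benjamini-Hochberg over all genes of a class). A class was tested with at least 10 nuclei in at least 3 libraries of each genotype. DESeq2 1.42.0 was the alternative. The code was checked on simulated counts. Exact permutation tests ran over all splits (495 for 8 against 4 libraries), with the smaller one-sided p doubled, a definition chosen after another had been computed. Members, lists and markers were chosen with earlier results of these data known, and the gate thresholds after looking at the data. All members were named, with any called gene of a list, otherwise the 3 with the highest level in the striatal-like or fibroblast-like class, and the 3 genes most like each member that reached 20 CPM in a class. The counts did not separate the alleles of Myt1l, so its level does not check the labels. WT libraries had 1427 ± 111 CPM of Myt1l (SD, n = 8). Het libraries had 1577 ± 51.5 (SD, n = 4; exact permutation p = 0.0323, unadjusted), and the cause was not tested. Receptor proteins were not compared, and Aldh1a3 had no promoter window in the table used here. One gene of the carrier list is not reported here.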

Additional observations from a re-analysis of the deposited data

Results flagged for a closer look

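Within each genotype, 46 groups of library values were screened for a library far from the rest of its group, and 6 stood out. Chance gives about 1 in 20 for separate groups, but several of these groups share nuclei, so no excess is read. In WT male 4 the level of Rarb was the lowest of the WT libraries over all kept nuclei (44.8 CPM), in striatal-like nuclei (1100.1 CPM) and in D1-like nuclei (1308 CPM). The latter 2 values came from its 17 striatal-like nuclei, 13 of them D1-like. Over all kept nuclei, Aldh1a1 was lowest of the Het libraries in Het male 2 (3.04 CPM, against 5.14 to 5.33 CPM in the others). Crabp1 was lowest of the Het libraries in Het male 1 (0.379 CPM). WT male 2 had the highest share of fibroblast-like nuclei among WT libraries (5.47%). The causes were not tested.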

How the results depend on the processing

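Of 146 comparisons of a result on the members or on class shares with another setting (without those that leave out 1 library), 141 kept their direction and their side of the threshold. With no filter on low counts 2 pairs were called in place of 0, Rarb in astroglia-like nuclei (log2 fold change 0.78, adjusted p = 0.0103) and in deep-layer neurons (0.87, adjusted p = 0.00207), where 0.272% and 0.253% of all genes were called, and the cause was not tested. With a gate asking for 1 more marker the log2 fold change of Rarb turned to -0.062 in striatal-like and -0.093 in D1-like nuclei, and the CPM difference in striatal-like nuclei from 143 to -76.0 (24.6, without WT male 4, to 205 with each library left out). With the labels' replicate numbers as a block the log2 fold change of Rarb in D2-like nuclei turned from -0.10 to 0.056, and 0 members were called in any class or over all nuclei, as without it. Over all kept nuclei, the deviations of same-numbered libraries had r = -0.14, 0.079, 0.044 and 0.21. Only for Het female 1 was the same-numbered WT library the closest WT library. These correlations cannot show whether the numbers pair the libraries. With each library left out in turn, 0 members were called. The log2 fold change of Rarb ran from -0.0024 to 0.11 in striatal-like and from -0.023 to 0.072 in D1-like nuclei, the CPM difference over all nuclei from 80.2 to 147 for Rarb (p no longer under 0.05 in 7 of 12) and from 9.94 to 18.6 for Rxrg, the striatal share difference from 1.14 to 2.42 points and the fibroblast share difference from -0.172 to 0.484 points. The call of Thrb in MGE-type interneurons was lost with the replicate block (log2 fold change -0.39, adjusted p = 0.136), in males alone (-0.61, 0.0774), with the stricter gate (-0.46, 0.105) and with all barcodes (-0.58, 0.136). The other definition of the two-sided exact p, added after seeing the data, changed no call. Gates left 63.2% of nuclei out of the classes, and 4 Het libraries limit every comparison of genotypes.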
